A study of Mus musculus with 16 samples.

Results

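The genes described here are Rtp1, Rtp2 and Reep1, which encode accessory proteins that carry odorant receptors to the cell surface. They were taken as the probe sets whose platform gene symbol is one of these names, and each name had 1 probe set. They are 3 of 19505 genes named on the array. RNA was measured on Clariom S mouse arrays in fluorescence-sorted cells of the olfactory mucosa of S100a5-tauGFP mice, strain C57BL/6, of both sexes and 7 to 12 weeks old. The series used 24 mice, each kept in a chamber with 3.1 L of clean air per minute for 40 hours. From 26 hours on, pulses lasting 10 seconds were given at intervals of 20 minutes, with filtered air for the vehicle mice and isoamyl acetate, a banana-scented ester, for the odor mice. Each library holds cells of 3 mice, a pool, and there were 8 pools, each with 2 libraries, 1 titled GFP+ and 1 titled GFP-. The groups are therefore the vehicle libraries titled GFP-, the vehicle libraries titled GFP+ and the same sorts of the odor mice, with 4 libraries in each of the 4. All 4 groups come from mice that carry the reporter, so no group lacks it. The GFP is driven through S100a5, a calcium-binding protein gene that responds to odor stimulation in olfactory sensory neurons, and a library averages 3 animals.

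Odorant receptors made in most other cells stay in the endoplasmic reticulum, and the receptor transporting proteins RTP1 and RTP2 let them leave it and reach the plasma membrane. In mice without both transporters many receptors fail to reach the cilia of the sensory neurons. REEP1 was found in the same screen for receptor helpers, and it also shapes the tubules of the endoplasmic reticulum, for which it is known in hereditary spastic paraplegia.

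The promoter sequences of the members are shown as a description. None was found for Rtp1, so they do not bear on how Rtp1 and Rtp2 varied together from pool to pool, as described further on. Entries for 2 of the 3 members, Rtp2 and Reep1, were found among the RefSeq promoters, which span 250 bases before to 50 bases after the gene start on GRCm38.p6. The Rtp2 promoter lies at chr16:23930745-23931044 on the minus strand and that of Reep1 at chr6:71707431-71707730 on the plus strand. Both are printed 5′ to 3′ on the strand of the gene, and capitals mark the letters that match CCCNNGGG, the core of the site of the olfactory O/E (EBF) factors.
Rtp2: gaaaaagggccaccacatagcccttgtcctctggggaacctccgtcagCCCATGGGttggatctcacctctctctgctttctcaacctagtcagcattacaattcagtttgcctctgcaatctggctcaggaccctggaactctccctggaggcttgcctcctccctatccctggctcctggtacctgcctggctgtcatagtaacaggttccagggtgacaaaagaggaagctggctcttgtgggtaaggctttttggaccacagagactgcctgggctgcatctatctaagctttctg
Reep1: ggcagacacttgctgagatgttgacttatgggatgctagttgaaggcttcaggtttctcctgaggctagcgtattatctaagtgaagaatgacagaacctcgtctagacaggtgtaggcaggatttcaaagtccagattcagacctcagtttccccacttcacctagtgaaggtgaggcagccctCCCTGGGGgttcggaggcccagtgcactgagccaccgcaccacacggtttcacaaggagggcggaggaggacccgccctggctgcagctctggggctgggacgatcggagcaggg
Each promoter held 1 match. That of Rtp2 (CCCATGGG) begins 202 bases before the start, and that of Reep1 (CCCTGGGG) begins 65 bases before it. The core reads the same on both strands and was found in 13.7% of 32851 mouse promoters of this length. The longer palindrome, this core with T before and A after it, which occurs in 0.904% of promoters, had no match in either, and neither did the homeodomain core TAATTA, which occurs in 5.29%. A match describes letters only and shows neither binding nor a cause of any value below.

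Before the results, the labels need a limit. The title and the cell type field give opposite GFP signs in 16 of 16 samples, and groups here follow the titles. S100a5, the reporter's own gene, went against the titles: it was lower in titled GFP+ by a log2 difference of -1.18 in vehicle (adjusted p = 0.000442) and -1.25 in odor (adjusted p = 0.000222), with no overlap of groups. All sort differences below subtract the libraries titled GFP- from those titled GFP+, and their sign turns if the cell type field holds. Markers of other cells also moved with the sort: 17 of 17 macrophage and neutrophil genes were higher in titled GFP+ in vehicle and 16 of 17 in odor. Their mean log2 signal was 5.52 to 6.94 in the 8 libraries titled GFP- and 11.59 to 13.13 in the 8 titled GFP+. Other such markers were higher in titled GFP+ in vehicle and in odor in 9 and 9 of 10 (sustentacular), 10 and 10 of 10 (microvillar), 10 and 9 of 17 (immature neuron), 8 and 8 of 8 (progenitor), 7 and 6 of 8 (lymphocyte) and 3 and 3 of 3 (erythroid). Their part in the differences of the members was not tested. Omp, the defining marker of mature olfactory neurons, was at 17.99 to 18.59 in all 16 libraries, so mature neuron RNA was present in both sorts. In bulk libraries such as these, fewer cells of a type and less RNA per cell cannot be told apart.

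All 3 members gave strong signals in every library. Above the median negative control of the same array, which lay between 5.15 and 5.67, the log2 signal stood 10.93 to 11.90 higher for Rtp1, 8.72 to 10.33 higher for Rtp2 and 7.26 to 8.85 higher for Reep1. Signals of different probe sets are not levels that can be ranked against each other, so differences of 1 gene between libraries are read below. Genes are compared with each other only through such differences or through their pattern over libraries and pools.

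Rtp1 is one of the pair of transporters. In vehicle libraries titled GFP- its log2 signal was 16.91, 17.06, 17.09 and 17.04 in pools 1 to 4, and in those titled GFP+ it was 16.86, 17.07, 16.89 and 16.85. In odor libraries titled GFP- it was 16.87, 17.26, 17.04 and 16.88, and in those titled GFP+ it was 16.49, 17.00, 17.02 and 16.74. The sorts overlapped in both exposures, and the odor libraries of pools 1 and 4 titled GFP+ were the lowest of the 16. The group means (± SD, n = 4) ran from 17.02 ± 0.08 in vehicle titled GFP- through 17.01 ± 0.18 in odor titled GFP- and 16.92 ± 0.10 for vehicle titled GFP+ to 16.81 ± 0.25 in odor titled GFP+. Each step in this order is smaller than the SD of the lower group.

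Rtp2 is the close relative of Rtp1 and acts on the same receptors. In vehicle libraries its log2 signal was 14.97, 15.38, 15.14 and 15.19 in those titled GFP- and 14.80, 15.25, 14.87 and 14.96 in those titled GFP+, pools 1 to 4. In odor libraries it was 15.00, 15.70, 15.12 and 14.91 in those titled GFP- and 14.28, 15.14, 14.87 and 14.58 in those titled GFP+. In every pool the library titled GFP+ was the lower of the pair, although the groups overlapped because pools differed from one another. Pool 2 was the highest of its exposure in both sorts, and odor pool 1 titled GFP+ was the lowest of all 16 libraries. The group means (± SD, n = 4) were 15.18 ± 0.36 in odor titled GFP-, 15.17 ± 0.17 in vehicle titled GFP-, 14.97 ± 0.20 in vehicle titled GFP+ and 14.72 ± 0.37 in odor titled GFP+. The upper neighbours in this order, the 2 groups titled GFP-, differed by far less than either SD, the step from vehicle titled GFP- to vehicle titled GFP+ was about the size of the SDs, and the last step was smaller than the SD of the odor group.

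Reep1 is the membrane-shaping member. In vehicle libraries titled GFP- its log2 signal was 13.49, 13.45, 13.52 and 14.16 in pools 1 to 4, and in those titled GFP+ it was 13.25, 13.57, 13.25 and 14.04. Both libraries of vehicle pool 4 were well above all others. In odor libraries it was 13.45, 13.70, 13.66 and 13.41 in those titled GFP- and 12.82, 13.41, 13.70 and 13.20 in those titled GFP+. The sorts overlapped in both exposures, and odor pool 1 titled GFP+ was again the lowest library. The group means (± SD, n = 4) were 13.65 ± 0.34 in vehicle titled GFP-, 13.56 ± 0.15 in odor titled GFP-, 13.53 ± 0.37 in vehicle titled GFP+ and 13.28 ± 0.37 in odor titled GFP+, and no neighbours in this order differed by more than their SDs. The library that was lowest for all 3 members, odor pool 1 titled GFP+, also had the lowest mean of 20 mature neuron markers (14.92, place 16 of 16) and the highest mean of the macrophage and neutrophil genes (13.13). The part of these in its low values was not tested.

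**Figure D1:**
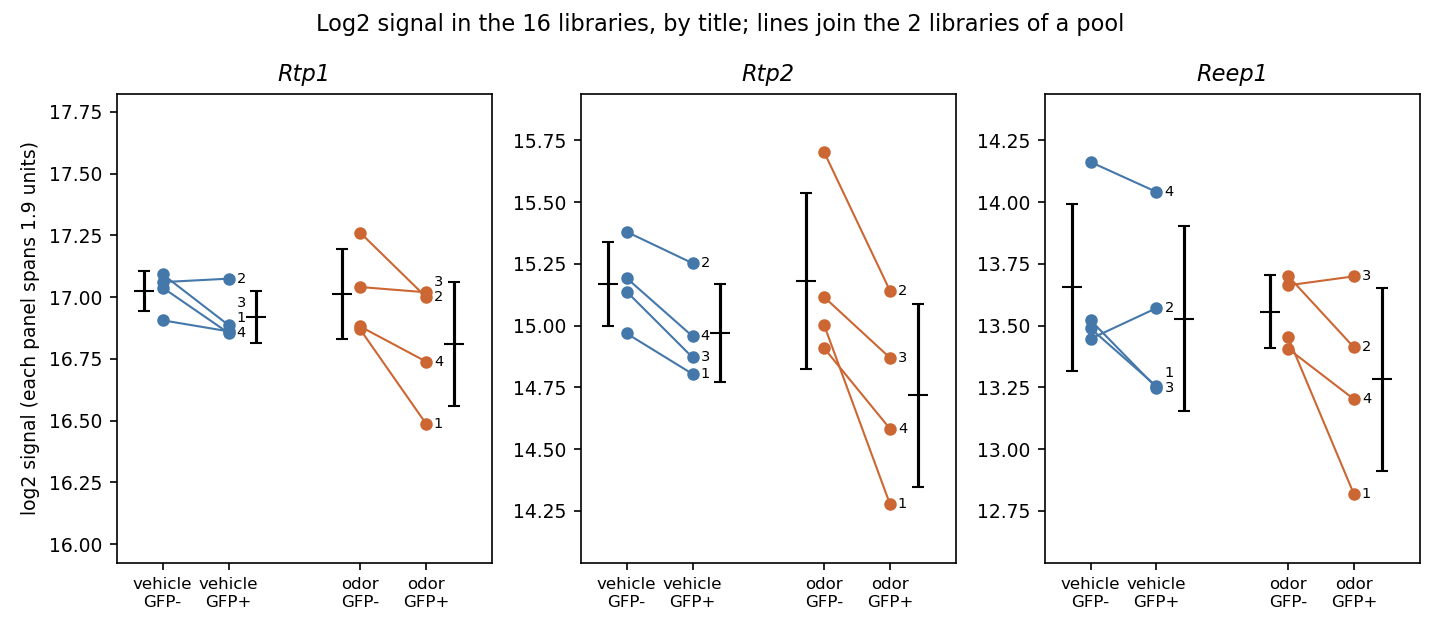
Log2 signal of Rtp1, Rtp2 and Reep1 in the 16 libraries (vertical axis, each panel spanning the same number of log2 units), by exposure and titled sort. Points are libraries, lines join the libraries of a pool, numbers are pools, and bars are the mean and SD of 4. The Rtp2 lines all slope down from titled GFP- to titled GFP+, and vehicle pool 4 stands high for Reep1 in both sorts.

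In vehicle mice none of the 3 members differed between the sorts by limma's test over all 22206 probe sets, in which 17.3% passed. Rtp1 stood at a log2 difference of -0.10 (SE 0.14, 95% interval -0.39 to 0.18, adjusted p = 0.640), Rtp2 at -0.20 (SE 0.20, -0.61 to 0.22, adjusted p = 0.530) and Reep1 at -0.13 (SE 0.21, -0.58 to 0.33, adjusted p = 0.730). In linear terms the signal in titled GFP+ was 0.930 times that in titled GFP- for Rtp1 (interval 0.762 to 1.13), 0.872 times for Rtp2 (0.654 to 1.16) and 0.916 times for Reep1 (0.670 to 1.25). All 3 lie near the median of all probe sets, which was -0.13.

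In odor mice, where 20.9% of probe sets passed, again 0 of 3 did. The differences were -0.20 for Rtp1 (SE 0.14, interval -0.49 to 0.09, adjusted p = 0.317) and -0.27 for Reep1 (SE 0.21, -0.73 to 0.18, adjusted p = 0.395). Rtp2 stood at -0.46 (SE 0.20, -0.88 to -0.05), which is 0.725 times the signal of titled GFP- (0.544 to 0.966), with an unadjusted p of 0.0304 and an adjusted p of 0.107. The median of all probe sets was -0.14.

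The libraries of a pool come from the same mice, and with the pool as a block Rtp2 passed in odor. Its difference of -0.46 then had an SE of 0.11 and an interval of -0.71 to -0.22 (adjusted p = 0.0121), and with the pool as a random block the adjusted p was 0.0410. With the fixed block 26.1% of probe sets passed in odor and 21.1% in vehicle, and Rtp2 was the only member among them, in odor alone (vehicle adjusted p = 0.229). Whether its sort difference was larger with odor is the interaction, which did not pass. The Rtp2 call of the block was lost without odor pool 1 (-0.38, adjusted p = 0.0586) and without odor pool 2 (-0.43, adjusted p = 0.0538), the pools with the widest differences.

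The direction of the members depends on what the arrays are scaled to. Centring each array on its median moves the median difference of all probe sets to -0.50 in both exposures, and 70.4% of them then passed in vehicle and 70.0% in odor. All 3 members were among those that passed, at -0.48, -0.57 and -0.50 for Rtp1, Rtp2 and Reep1 in vehicle and at -0.57, -0.83 and -0.64 in odor. Centring on 20 mature olfactory neuron markers, none of them a member, moves the median of all probe sets to 0.14 and 0.18. It turned Rtp1 to 0.16 and 0.11 and Reep1 to 0.14 and 0.04 in vehicle and odor, and Rtp2 to 0.07 in vehicle, while Rtp2 in odor stayed below 0 at -0.15 (adjusted p = 0.318 with the pool block). None of the 3 passed on that scale, where 3862 of 22206 probe sets passed in vehicle and 4643 in odor. Of those that passed, 85.7% were higher in titled GFP+ in vehicle and 87.2% in odor. On that scale the differences of the members lay between -0.15 and 0.16.

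**Figure D2:**
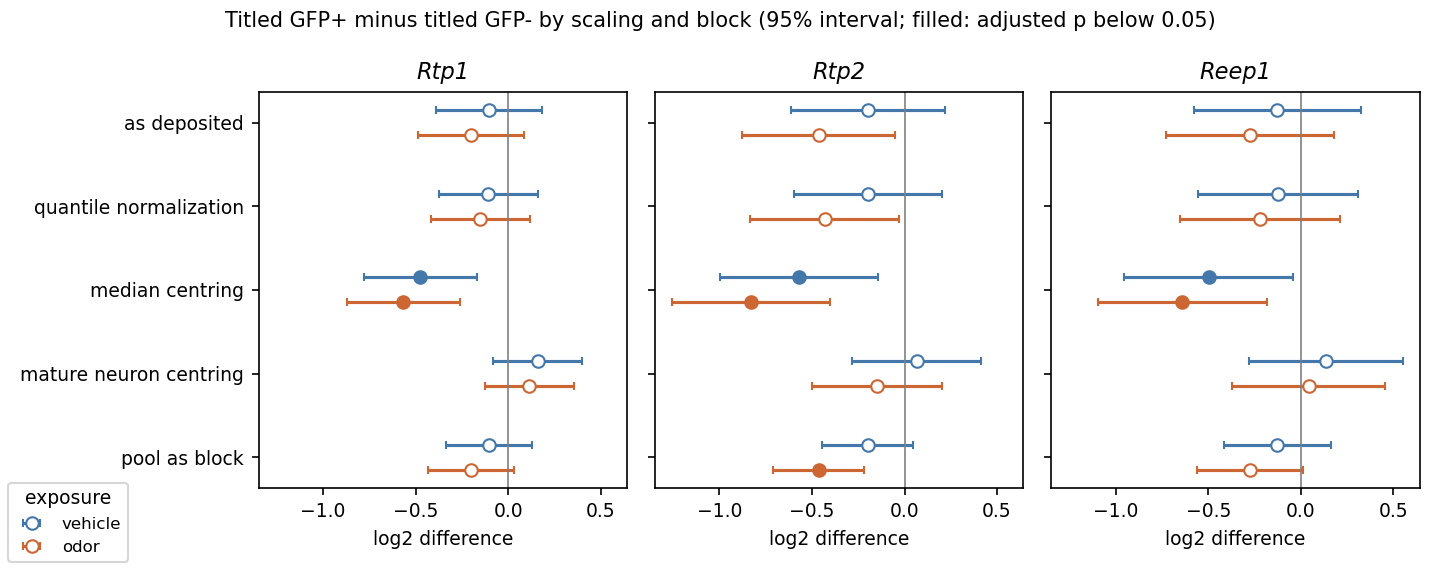
Log2 difference of Rtp1, Rtp2 and Reep1 between titled GFP+ and titled GFP- (horizontal axis, points with 95% intervals) for the deposited values, for each scaling of the arrays and with the pool as a block, in vehicle and odor. Filled points passed an adjusted p of 0.05. All are filled under median centring, and under centring on mature neuron markers all but Rtp2 in odor lie above 0.

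On the deposited values the library titled GFP+ was the lower one in 8 of 8 pools for Rtp2, as for 15.1% of all probe sets. It was lower in 7 of 8 pools for Rtp1, where 31.6% of probe sets were lower in at least 7, and in 6 of 8 for Reep1, where 49.2% were lower in at least 6. The differences per pool ran from -0.72 to -0.13 for Rtp2, from -0.38 to 0.01 for Rtp1 and from -0.63 to 0.12 for Reep1. These counts move with the scale: median centring gave 8 of 8 for each member, and centring on mature neuron markers gave 4 of 8 for Rtp2, 0 of 8 for Rtp1 and 1 of 8 for Reep1. The share of all probe sets with such counts was not computed on these 2 scales. Under median centring 13868 of 22206 probe sets were called lower in titled GFP+ in vehicle and 13679 in odor. The counts on these scales are therefore not read as a trait of the members. When 1 gene is set against another on the same arrays, centring of whole arrays cancels. The sort difference of Rtp2 was below that of Rtp1 in 8 of 8 pools, by -0.18 on average (SD 0.11; exact two-sided sign-flip permutation test, p = 0.00781, the smallest that 8 pools can give, and 0.0234 adjusted over the 3 pairs). It was below that of Reep1 in 6 of 8 pools, by -0.13 (SD 0.13; exact p = 0.0312, adjusted p = 0.0469), which became 0.0938 without any 1 of 6 of the 8 pools. These 6 are vehicle pools 2 and 4 and odor pools 1, 2, 3 and 4. Reep1 and Rtp1 differed by -0.05 (SD 0.13; exact p = 0.344), with 5 of 8 pools below 0. The probe sets lie at different signal levels, and whether they respond equally to the same change in RNA was not tested.

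The exposure itself gave no call for any member. In libraries titled GFP-, where 0.018% of probe sets passed, odor minus vehicle was -0.01 for Rtp1 (interval -0.30 to 0.28), 0.01 for Rtp2 (-0.40 to 0.43) and -0.10 for Reep1 (-0.55 to 0.35), each with an adjusted p of 1.00. In libraries titled GFP+, where 0.00901% passed, it was -0.11 for Rtp1 (-0.40 to 0.18, adjusted p = 0.979), -0.25 for Rtp2 (-0.67 to 0.16, adjusted p = 0.972) and -0.25 for Reep1 (-0.70 to 0.21, adjusted p = 0.972). The intervals for titled GFP- correspond to 0.813 to 1.21 times the vehicle signal for Rtp1, 0.757 to 1.34 times for Rtp2 and 0.682 to 1.28 times for Reep1. The change of the sort difference from vehicle to odor was -0.10 for Rtp1 (-0.50 to 0.31), -0.27 for Rtp2 (-0.85 to 0.32) and -0.15 for Reep1 (-0.79 to 0.49), each with an adjusted p of 1.00, where 0.0045% of probe sets passed. At an unadjusted p under 0.05 limma counted 733 probe sets in titled GFP-, 1072 in titled GFP+ and 653 for the interaction, and no member was among them. With the replicate number as a block 5 probe sets passed in titled GFP- and 1 in titled GFP+, again with no member. The interaction intervals above come from the fit without the pool block. With the pool as a fixed block 0 probe sets passed for the interaction. The limma adjusted p was then 0.971 for Rtp1, 0.959 for Rtp2 and 0.971 for Reep1. The comparisons share libraries, so their values for a member are not independent.

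Pools differed from one another within each exposure, and the transporters did so together. The mean of the libraries of a pool ran over 0.45 log2 units for Rtp1 (16.68 to 17.13), 0.78 for Rtp2 (14.64 to 15.42) and 0.97 for Reep1 (13.13 to 14.10). Over the 8 pools Rtp1 and Rtp2 had a Pearson r of 0.933 (exact permutation p = 0.000769, 0.00461 adjusted over 6 relations) and a Spearman rho of 0.905 (exact p = 0.00456, adjusted 0.0137). The permutations, here and in the next paragraph, treat all pools as exchangeable, whatever their exposure or replicate number. For both transporters pool 2 was the highest and pool 1 the lowest of its exposure, in vehicle and in odor. If pools of the same number are related, these p-values are too small, which was not tested. Without odor pools 1 and 2, the farthest from the median of Rtp1, r was 0.870, and it was 0.928 after median centring and 0.910 after centring on mature neuron markers. Rtp1 and Reep1 gave r = 0.512 (exact p = 0.194, adjusted 0.216) and rho = 0.690 (exact p = 0.0694, adjusted 0.0833), and r fell to 0.304 without the same 2 pools. Rtp2 and Reep1 gave r = 0.489 (exact p = 0.216, adjusted 0.216) and rho = 0.738 (exact p = 0.0458, adjusted 0.0687), with r = 0.383 without those pools. After centring on mature neuron markers r of Rtp2 and Reep1 was 0.332, and 0.790 without vehicle pool 2 and odor pool 2. Whether these correlations differ from that of the transporters was not tested. Vehicle pool 4, the highest for Reep1 at 14.10, was in the middle of the range for Rtp1 at 16.95 and for Rtp2 at 15.07.

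The same pools tended to be high in both sorts. Between the library titled GFP- and the library titled GFP+ of a pool, r was 0.701 for Rtp1 (exact p = 0.0540, adjusted 0.0810), with rho = 0.786 (exact p = 0.0279, adjusted 0.0559). Rtp2 gave r = 0.747 (exact p = 0.0374, adjusted 0.0747) and rho = 0.905 (exact p = 0.00456, adjusted 0.0137). Reep1 gave r = 0.790 (exact p = 0.0171, adjusted 0.0513) and rho = 0.643 (exact p = 0.0962, adjusted 0.0962). On the deposited values only the rank order of Rtp2, of these r and rho, passed after adjustment. Leaving out the 2 pools farthest from the median gave r = 0.661 for Rtp1, 0.644 for Rtp2 and 0.587 for Reep1. Under median centring no r passed, at 0.613 for Rtp1 (adjusted exact p = 0.170), 0.694 for Rtp2 (0.130) and 0.745 for Reep1 (0.109). Of the rho there only that of Rtp2 passed (0.905, adjusted 0.0137). After centring on mature neuron markers all 3 values of r passed, at 0.756 for Rtp1 (adjusted exact p = 0.0443), 0.812 for Rtp2 (0.0300) and 0.882 for Reep1 (0.0349). On that scale rho passed for Rtp2 only (0.857, adjusted exact p = 0.0321). It was 0.595 for Rtp1 and 0.619 for Reep1, each with an adjusted p of 0.198. Without the farthest 2 pools on that scale r became 0.465, 0.718 and 0.135, so for Reep1 the relation there rests on vehicle pool 4 and odor pool 3. Without vehicle pool 4 alone, a choice made after seeing the data, r for Reep1 was 0.526 as deposited and 0.477 on that scale.

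**Figure D3:**
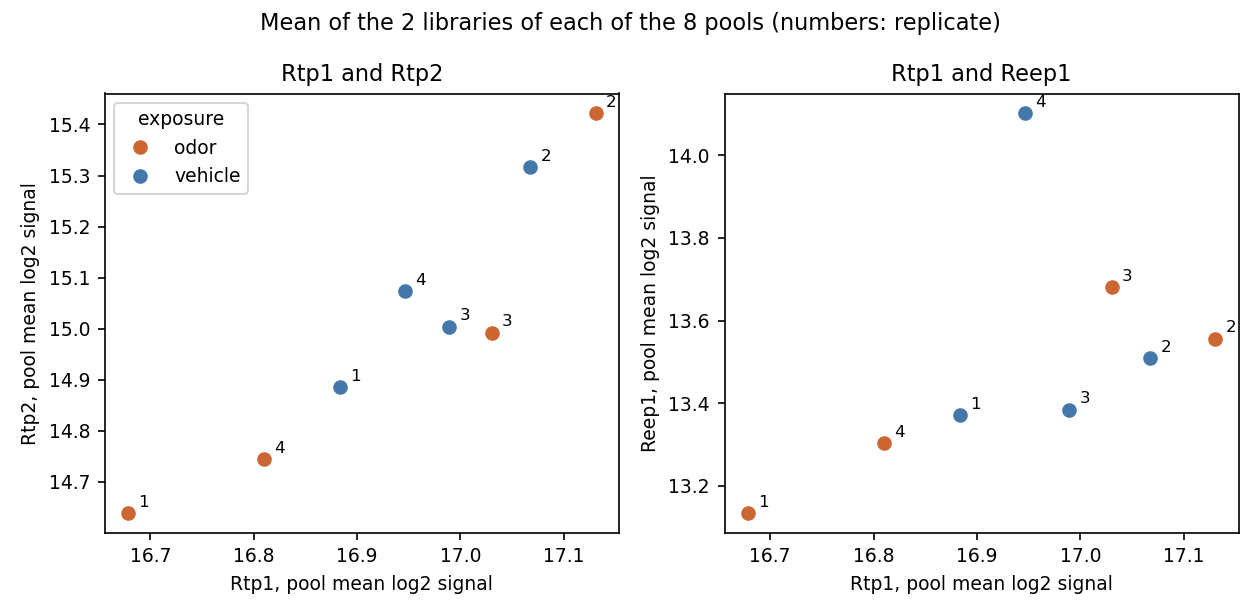
Mean log2 signal of the libraries of each pool, Rtp1 on the horizontal axes, Rtp2 (left) and Reep1 (right) on the vertical axes, coloured by exposure and numbered by pool. The 8 pools lie close to a line for Rtp1 and Rtp2 (r = 0.933) and are more scattered for Rtp1 and Reep1 (r = 0.512), where vehicle pool 4 stands high. For Rtp1 and Rtp2 odor pool 1 is the lowest and odor pool 2 the highest, and the vehicle pools lie between them.

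Among 12259 genes with a mean above the negative controls, those with a pattern most like a member's were taken by Pearson r over the 16 arrays, as a description, since arrays share pools, sorts and scale. For Rtp1 they were Tnfrsf21 (a death receptor, r = 0.955), Pigq (GPI anchor synthesis, 0.941), Rtp2 (0.940), Mob3b (0.935) and Susd6 (0.935). For Rtp2 they were Ppme1 (a phosphatase methylesterase, 0.964), Lman2l (a lectin of the secretory path, 0.958), Ina (a neuronal intermediate filament, 0.949), Nptx2 (a neuronal pentraxin, 0.949) and Dusp19 (a phosphatase, 0.946). For Reep1 they were Usp10 (a deubiquitinase, 0.925), Kcnh4 (a potassium channel, 0.924), Ccdc127 (0.920), Ppargc1b (a coactivator of mitochondrial genes, 0.899) and Dok4 (a docking adaptor, 0.895). Rtp2 was thus place 3 of 12258 in likeness to Rtp1, and Rtp1 place 8 in likeness to Rtp2. Reep1 came in at place 1327 for Rtp1 (r = 0.626) and place 1963 for Rtp2 (r = 0.599).

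Relatives of the members were measured beside them. Of the 4 RTP genes none passed in either exposure without the block. Rtp3 stayed below the median negative control of the array in all 16 libraries, and Rtp4, an interferon-induced relative, was close to it, at 5.45 in titled GFP- (above it in 2 of 4 libraries) and 5.93 in titled GFP+ (4 of 4) of vehicle mice. Rtp4 stood at 0.48 in vehicle (SE 0.21, adjusted p = 0.138) and 0.08 in odor (adjusted p = 0.831). It passed in vehicle after centring on mature neuron markers (0.75, adjusted p = 0.0121). Interferon response genes, the set to which Rtp4 belongs in other tissues, were higher in titled GFP+ in 5 of 12 in vehicle and 4 of 12 in odor, with 0 lower, led by the tetherin gene Bst2 at 1.66 and 1.84. Median centring gave 4 higher and 2 lower in vehicle and 3 higher and 4 lower in odor, and the pool block gave 5 and 1, and 4 and 2. Many of the 12 lay at the floor. In vehicle 6 were above the negative controls in no library titled GFP- and 3 in none titled GFP+. In odor these counts were 5 and 4.

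Of the 6 REEP genes 3 were higher in titled GFP+ in vehicle and 2 in odor, and 0 were lower, where 17.3% and 20.9% of all probe sets passed. Under median centring 2 were higher and 3 lower in each exposure, and under centring on mature neuron markers 3 were higher and 0 lower. Reep5, a widely expressed tubule-shaping relative, had a mean of 8.46 in titled GFP+ of vehicle mice and 5.23 in titled GFP-, where only 1 of 4 libraries was above the negative controls. With the control median as floor its log2 difference is at least 2.92 (adjusted p = 8.95e-08 in the fit). In odor it had a mean of 8.21 in titled GFP+ and was above the controls in 0 of 4 libraries titled GFP-, so that the difference is at least 2.76 by the same floor (adjusted p = 1.05e-07). Reep4, which clears membrane from mitotic chromosomes, was higher by 1.20 in vehicle (SE 0.26, adjusted p = 0.00325) and 1.27 in odor (SE 0.26, adjusted p = 0.00190). Both kept their direction under each scaling tried.

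Reep3, the partner of Reep4 in that role, passed in vehicle (0.60, SE 0.18, adjusted p = 0.0283) and stood at 0.29 in odor (adjusted p = 0.281), where median centring turned it to -0.08. Reep6, known from photoreceptors and olfactory neurons, stood at -0.61 in vehicle (SE 0.22, adjusted p = 0.0716) and -0.36 in odor (adjusted p = 0.272). With the pool as a block it passed in vehicle (adjusted p = 0.0120), and after centring on mature neuron markers it stood at -0.35 and -0.05. Reep2 was not above the negative controls in any library. No RTP or REEP gene passed for odor against vehicle in either sort or for the interaction.

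**Figure D4:**
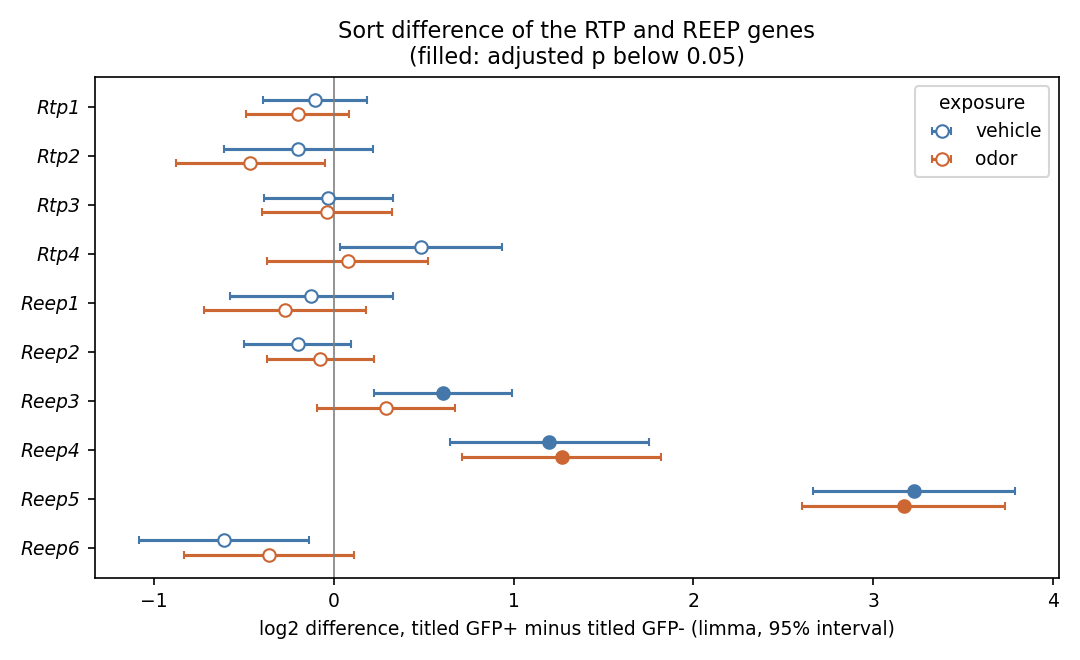
Log2 difference between titled GFP+ and titled GFP- (horizontal axis, points with 95% intervals) for the 4 RTP and 6 REEP genes in vehicle and odor. Filled points passed an adjusted p of 0.05. Reep5 and Reep4 lie to the right in both exposures, while the intervals of Rtp1 and Reep1 include 0.

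Genes that act beside the members in moving and coupling odorant receptors were read in the same fit. Of 16 listed accessory and coupling genes 14 were measured, and 0 passed in vehicle (median -0.10) or odor (median -0.18). The largest differences in vehicle were Hspa1l at -0.51, below the negative controls in all 8 libraries, and Ric8a, a G protein chaperone, at 0.33 (adjusted p = 0.158). In odor they were Hspa1l at -0.43 and the muscarinic receptor gene Chrm3 at 0.41, both below the negative controls. The Golgi protein gene Gfy, needed for receptor and adenylyl cyclase transport to cilia, stood at -0.11 and -0.19, and Ric8b, the chaperone of the olfactory G protein, at -0.28 (adjusted p = 0.0615) and -0.27 (adjusted p = 0.0626). Median centring called 11 of these 14 as lower in vehicle and 12 in odor, and centring on mature neuron markers called 2 and 1 as higher. Gnal, Gnb1, Gng13, Adcy3 and Ric8b are listed among the mature neuron markers too. Those of them that were measured help to set that scale, so their values on it are not independent of it. The pool block called 1 as higher in vehicle, Ric8a (adjusted p = 0.0441), and quantile normalization 1 as lower in odor, Ric8b (adjusted p = 0.0475). Of 9 measured genes that shape the endoplasmic reticulum with REEP1, 0 passed in vehicle (median -0.03) and 2 were lower in odor (median -0.14), the reticulon Rtn2 at -0.59 (SE 0.17, adjusted p = 0.0198) and Erlin2 at -0.50 (SE 0.15, adjusted p = 0.0285). Median centring made 8 of these 9 lower in vehicle and 9 in odor, centring on mature neuron markers 0, and the pool block 0 and 3.

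Genes were also listed for the feedback that stabilises receptor choice, which runs through the unfolded protein response and a set of transcription factors. The list gave 1 higher and 1 lower of 17 in vehicle (median -0.08). These were Xbp1 at 0.68 (SE 0.21, adjusted p = 0.0299), which is also high in secretory cells, and the stress kinase relative Trib3 at -0.89 (SE 0.27, adjusted p = 0.0285). Whether either takes part in the feedback was not tested. In odor 0 of 17 passed (median -0.08). Median centring made 12 lower in vehicle and 14 in odor, and centring on mature neuron markers made 2 higher and 0 lower in each. Of the 20 mature neuron markers 4 were lower in each exposure, with medians of -0.22 and -0.27. Median centring made 19 lower in each, and centring on these markers themselves left 0 in vehicle and 1 in odor. The 4 on the deposited values were Pde1c, Slc24a4, Ano2 and Ckb, the first 3 of which act in transduction, and Pde1c stood at -0.66 in vehicle and -0.84 in odor. Vomeronasal neuron markers gave 1 higher of 4 in vehicle, Gnai2, and 1 higher and 1 lower in odor, Gnai2 and Lrrc3b. The median of the 4 was -0.12 in vehicle and -0.23 in odor. Whether the rise of Gnai2 comes from vomeronasal neurons or from other cells was not tested. No gene of these lists passed for odor against vehicle or for the interaction.

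Rtp1 and Rtp2 lie close together on chromosome 16, with Masp1, Rtp4 and Sst between them among the measured genes in RefSeq order on GRCm38.p6. The 3 nearest measured genes on each side of each member gave 0 calls in vehicle and 2 in odor. Masp1, a complement protease gene between the transporters, was higher in titled GFP+ (0.76, SE 0.24, adjusted p = 0.0345), and St6gal1, a sialyltransferase gene on the other side of Rtp1, was lower (-0.59, SE 0.19, adjusted p = 0.0330). Beside Reep1 on chromosome 6, where Kdm3a and Mrpl35 are the nearest, 0 of 6 neighbours passed in either exposure.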

How the data were processed

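Each array has 1 deposited log2 signal per probe set. The program was Affymetrix Expression Console, as named without a version in the submitters' processing notes, with a normalization (not given in the sources used here) that was kept. The log base is not stated and was read as log2 from the range of 2.12 to 19.33. Of 28846 probe sets 6640 controls were left out, which leaves 22206, and 19572 of these have 1 gene symbol and 2634 none. Limma (version 3.58.1, R 4.3.3) fitted the 4 group means over 16 arrays (lmFit, eBayes without trend, 12 residual degrees of freedom) with Benjamini-Hochberg adjustment over all tested probe sets and a threshold of 0.05. RefSeq served for names, gene order and promoters only, and no coordinates were given to probe sets. The number of arrays limits the precision.

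A member is its highest-mean probe set. The text names the members, S100a5, Omp, all RTP and REEP genes, the called genes with the largest differences of each list (or the largest differences where none is called), 3 neighbours a side and 5 genes most like each member. Markers of other cell types are given as counts. Gfy and Ric8b were named outside this rule, for their role, after their values were seen. The members and lists were chosen with earlier results of these data known, and relations over pools after seeing the data. The libraries of a pool come from the same mice, and their deviations from group means correlated in all 8 pools (r = 0.158 to 0.399), so the pool was taken as a pairing and tried as a block. Other alternatives were scaling, filter, variance model and leaving out pools.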

Additional observations from a re-analysis of the deposited data

Results flagged for a closer look

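Of 40 groups of 4 libraries examined for the RTP and REEP genes, 4 had a library far from the other 3, where chance gives about 1 in 20. Rtp1 stood at 17.07 in vehicle titled GFP+ pool 2, against 16.85 to 16.89 in the other 3. Reep1 stood at 14.16 in vehicle titled GFP- pool 4, against 13.45 to 13.52, and the titled GFP+ library of the same pool was also its group's highest, at 14.04. Reep5 stood at 8.29 in vehicle titled GFP+ pool 3, against 8.49 to 8.53. Rtp3 stood at 4.00 in odor titled GFP- pool 4, against 3.44 to 3.53, all below the median negative control.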

How the results depend on the processing

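Scaling decided how many members passed for the sort. Of all 22206 probe sets, 70.4% passed in vehicle and 70.0% in odor under median centring. Under centring on mature neuron markers 3862 passed in vehicle and 4643 in odor. Median centring called 3 of 3 in vehicle (Rtp1 -0.48, Rtp2 -0.57, Reep1 -0.50) and 3 of 3 in odor (-0.57, -0.83 and -0.64), and centring on mature neuron markers called 0 and turned Rtp1 to 0.16, Rtp2 to 0.065 and Reep1 to 0.14 in vehicle and Rtp1 to 0.11 and Reep1 to 0.042 in odor. With the pool as a fixed or random replicate block 1 of 3 passed in odor, Rtp2 at -0.46. In fits of that block with each scaling, chosen after seeing the data, median centring and quantile normalization kept the Rtp2 call, but centring on mature neuron markers did not (-0.15, adjusted p = 0.318). Leaving out each pool moved the blocked value from -0.54 to -0.38, with adjusted p from 0.0148 to 0.0586. It moved the difference of Rtp2 and Reep1 from -0.16 to -0.11, with adjusted p from 0.0469 to 0.0938.

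Odor against vehicle in titled GFP- had no stable sign. Rtp1 was 0.011 after quantile normalization, Rtp2 was -0.0030 after centring on mature neuron markers, and leaving out each pool gave -0.094 to 0.037 for Rtp1, -0.16 to 0.10 for Rtp2 and -0.17 to 0.070 for Reep1. In titled GFP+ it gave -0.18 to 0.00035 for Rtp1, -0.39 to -0.11 for Rtp2 and -0.38 to -0.075 for Reep1. It moved the interaction of Reep1 from -0.25 to -0.026 and its sort difference in odor from -0.38 to -0.15, none of them called. The replicate number shared by odor and vehicle as a block called 0 of 3 members in either sort, with 5 probe sets in titled GFP- and 1 in titled GFP+ against 4 and 2 without it. The deviations of same-numbered libraries correlated at 0.174 to 0.278 in titled GFP+ and at 0.0729 to 0.406 in titled GFP-, with 1 pair under 0.1. Those of the libraries of a pool, at 0.158 to 0.399, were of similar size. The labels do not say what a shared number means, so the block was kept as an alternative. Whether a shared number marks a batch was not tested. Every other setting of the 5 comparisons left each member on its side of the threshold. The causes of these shifts were not tested. The array number limits what can be seen. In the fit without the pool block, the interval of the interaction for Rtp2 ran from -0.85 to 0.32. That fit leaves out the pairing of libraries within a pool, which also bears on this width.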
